A study of Mus musculus with 9 samples.

Results

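The insulin-like growth factor (IGF) axis was followed through 10 genes: the ligand Igf1, the receptors Igf1r, Igf2r and Insr, and the binding proteins Igfbp2, Igfbp3, Igfbp4, Igfbp5, Igfbp6 and Igfbp7. The genes were chosen by name, as probe sets whose only gene symbol was one of these 10. All 10 were found among 22180 genes with such a probe set, each with exactly 1 probe set of its own and 0 probe sets shared with another gene. All 10 lay above the 30th percentile of every one of the 9 arrays, so none of them passed the filter on dim genes through 1 group alone.

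IGF-I is a secreted growth factor made in liver and, locally, in stromal cells of many tissues under the control of growth hormone. It signals through the receptor tyrosine kinase IGF1R to the PI3K-AKT and MAPK pathways, and in the mammary gland it is known as a stroma-derived signal for ductal growth and epithelial survival. The IGF2 receptor carries IGF-II to lysosomes without signalling as a kinase, and the insulin receptor binds insulin and, in one splice form, IGF-II. The IGF binding proteins hold IGFs in the extracellular space with high affinity and thereby limit or prolong receptor activation, whereas IGFBP7 binds IGFs only weakly.

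Expression was measured in 9 female mice of strain FVB, 3 mice per group, with 1 Affymetrix Mouse Gene 2.0 ST array for each mouse. Normal mammary glands came from littermates with the genotype label wild-type Wnt1, and the tumours came from MMTV-Wnt1 mice labelled Wnt1+/-, recorded as non-metastatic or metastatic. In these mice the mouse mammary tumour virus promoter drives Wnt1, mainly in mammary epithelium. From 6 weeks of age, transgenic and control mice alike drank 6% sucrose with doxycycline at 200 µg/ml, and tumours were taken at a size of 20 mm. Normal glands were collected at 533 to 556 days of age, non-metastatic tumours at 222 to 354 days and metastatic tumours at 281 to 300 days. Age and tumour status therefore cannot be told apart in a comparison with normal gland. Values are log2 signals, on which a difference of 1 is a factor of 2, and since probe sets differ in brightness, levels are compared between groups for 1 gene and never between genes.

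The labels were checked against the tissue. Wnt1 was higher in non-metastatic and metastatic tumours than in normal gland by 6.43 and 6.16 on the log2 scale. Normal gland 2 stood apart: its mean log2 value of differentiated epidermis markers was 10.67 (5.60 and 5.64 in normal glands 1 and 3), that of skeletal muscle markers 9.998 (6.03 and 6.34), and that of milk and secretory markers 7.70 (12.40 and 12.55). Results that rest on this array are given with and without it. Luminal epithelial markers were present in every group, with mean log2 values of 8.77 to 9.80 for normal glands, 9.54 to 9.90 for the non-metastatic group and 9.36 to 10.67 for the metastatic group. The median change of the list from normal gland was 1.11 in non-metastatic and 0.86 in metastatic tumours, with genes of both signs in it.

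The ligand Igf1 and the binding protein Igfbp6 were lower in both tumour groups than in normal gland, and the receptor Igf1r was higher in both. Against normal gland, Igf2r passed the test only in non-metastatic tumours and Igfbp2 only in metastatic tumours. Neither of these 2 genes differed between the tumour groups by the adjusted test. A gene was called where limma's adjusted p, by Benjamini-Hochberg over 17478 genes, was under 0.05. In non-metastatic tumours against normal gland 2 of 10 members rose (Igf1r and Igf2r), against 11.2% of all genes tested, and 2 fell (Igf1 and Igfbp6), against 7.60% of all genes. In metastatic tumours against normal gland 2 rose (Igf1r and Igfbp2), against 7.35% of all genes, and 2 fell (Igf1 and Igfbp6), against 6.00%. The median change over the 10 members was 0.22 in non-metastatic and 0.05 in metastatic tumours, beside 0.05 and 0.04 over all genes. In each of these comparisons 5 of 10 members had no overlap between the groups, where 36.2% and 38.5% of all genes had none. Without normal gland 2 the counts were 1 higher and 2 lower in the non-metastatic group, and 1 higher and 1 lower in the metastatic group. The gene that was higher was then Igfbp3 in both, while the calls of Igf1r, Igf2r and Igfbp2 were lost. Of all 17379 genes tested without that array, 800 rose and 684 fell in the non-metastatic group. In the metastatic group 353 rose and 485 fell. Members called in either direction also numbered 2 in the non-metastatic group without normal gland 1. In the metastatic group they numbered 1 without normal gland 1, 2 without metastatic tumour 1 and 1 without metastatic tumour 2 or 3. Calls over all genes were fewer in these fits too. They were 725 higher and 594 lower in the non-metastatic group without normal gland 1. In the metastatic group they were 351 and 420 without normal gland 1, and 226 and 404 without metastatic tumour 1. They were 497 and 584 without metastatic tumour 2, and 260 and 378 without metastatic tumour 3. The split of calls over all genes moved with the scaling of the arrays: 1959 genes were higher and 1329 lower in the non-metastatic group and 1284 and 1048 in the metastatic group, but 2900 and 1078, and 1728 and 848, after the arrays were centred on their medians, which moved the median change of all genes to 0.14 and 0.10. Under that centring the members' counts stayed at 2 higher and 2 lower in each comparison.

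**Figure D1:**
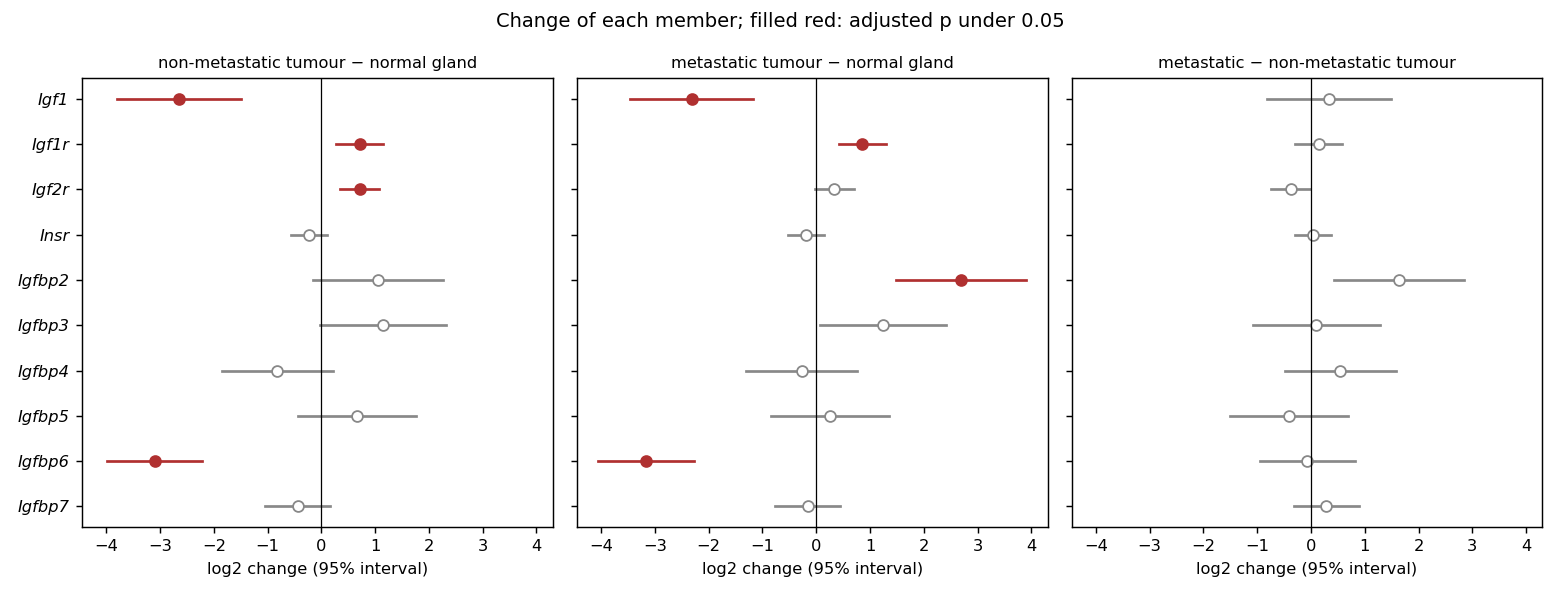
Log2 change of each of the 10 genes in the 3 comparisons (x axis), with 95% intervals from limma's moderated fit as lines and genes past an adjusted p of 0.05 filled in red. Igf1 and Igfbp6 lie left of 0 and Igf1r right of 0 in both comparisons with normal gland, and no gene is filled in the comparison between the tumour groups.

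The 5 genes that were called are shown here with the 250 bases before a transcription start from RefSeq (build GRCm38.p6), because 2 of them fell together and 3 rose. Capitals mark the GC box GGGCGG and the TCF/LEF core CTTTGA, each on either strand. RefSeq windows were matched for 9 of the 10 members, all but Insr. A gene can have further starts, and for Igfbp2 the first of the 2 windows listed is shown; the second held 0 matches of either motif.

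Igf1 (chr10:87860861-87861110, plus strand): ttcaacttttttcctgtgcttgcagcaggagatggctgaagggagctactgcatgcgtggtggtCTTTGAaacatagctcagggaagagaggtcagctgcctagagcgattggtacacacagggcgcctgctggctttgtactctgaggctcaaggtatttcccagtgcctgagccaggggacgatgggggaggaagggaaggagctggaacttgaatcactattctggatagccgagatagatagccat
Igfbp6 (chr15:102143936-102144185, plus strand): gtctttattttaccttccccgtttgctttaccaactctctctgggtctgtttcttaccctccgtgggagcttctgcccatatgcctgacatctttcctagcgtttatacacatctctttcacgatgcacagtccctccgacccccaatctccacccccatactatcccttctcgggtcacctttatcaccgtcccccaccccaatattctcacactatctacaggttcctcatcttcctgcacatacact
Igf1r (chr7:67952007-67952256, plus strand): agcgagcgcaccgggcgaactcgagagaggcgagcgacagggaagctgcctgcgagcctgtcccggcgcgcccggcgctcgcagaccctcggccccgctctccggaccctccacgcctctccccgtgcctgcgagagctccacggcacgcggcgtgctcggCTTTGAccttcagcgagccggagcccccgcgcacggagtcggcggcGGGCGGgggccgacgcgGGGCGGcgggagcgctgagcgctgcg
Igf2r (chr17:12769707-12769956, minus strand): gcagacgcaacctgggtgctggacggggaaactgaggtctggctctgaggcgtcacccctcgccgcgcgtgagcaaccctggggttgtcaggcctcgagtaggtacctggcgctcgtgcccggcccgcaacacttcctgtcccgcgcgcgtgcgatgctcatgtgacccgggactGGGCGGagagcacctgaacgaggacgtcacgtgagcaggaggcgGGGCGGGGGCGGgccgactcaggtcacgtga
Igfbp2 (chr1:72824230-72824479, plus strand): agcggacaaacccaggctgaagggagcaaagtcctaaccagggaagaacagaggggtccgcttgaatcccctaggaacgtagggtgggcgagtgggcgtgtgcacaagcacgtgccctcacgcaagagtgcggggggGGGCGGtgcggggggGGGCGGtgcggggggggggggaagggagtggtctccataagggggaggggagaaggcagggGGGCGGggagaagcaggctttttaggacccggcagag

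The 3 members that rose in a tumour group, Igf1r, Igf2r and Igfbp2, each held the GC box, 2 times in Igf1r and 3 times in each of the other two. The 2 members that fell, Igf1 and Igfbp6, held none, and over all RefSeq windows of this length 32.7% of 32851 held one. Among the members without a call, Igfbp7 held 4 GC boxes, while the windows of Igfbp3, Igfbp4 and Igfbp5 held 0. The TCF/LEF core, the sequence bound by the transcription factors of canonical Wnt signalling, occurred once in Igf1, beginning at position -186 from the start, and once in Igf1r, at -89, against 13.8% of all windows. The STAT motif TTCNNNGAA, searched because growth hormone acts through STAT5, was in 0 of the 9 member windows and in 7.02% of all windows. The CCAAT box occurred in the windows of Igf1 and Igfbp6 among the 9 members, and in 33.8% of all windows, counted on both strands. The 250 bases of Igf1 and Igfbp6 had a GC content of 52.8% and 49.6%, beside a median of 52.4% over all windows. Those of Igf1r, Igf2r and Igfbp2 had 77.6%, 69.2% and 67.2%. The members without a call were also above that median, with 73.2% for Igfbp3, 69.2% for Igfbp4, 58.8% for Igfbp5 and 74% for Igfbp7. These matches describe letters in these windows only, and the motifs were chosen with the expression results known.

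Igf1, the ligand of the axis, had log2 values of 9.76, 9.88 and 8.78 in the 3 normal glands. The non-metastatic group had 7.09, 5.68 and 7.70, and the metastatic group 6.97, 7.42 and 7.08. All 6 tumours were below all 3 normal glands, and non-metastatic tumour 2 was the lowest of all arrays. Igf1 fell in both, with a change of -2.65 in the non-metastatic group (SE 0.50, 6.26-fold lower, adjusted p = 0.013) and of -2.32 in the metastatic group (SE 0.50, 4.98-fold lower, adjusted p = 0.025). The first of these calls held in all 18 alternatives run, with changes between -3.08 and -2.08. The second was lost without normal gland 1 or 2 or any 1 of the 3 metastatic tumours, with adjusted p between 0.055 and 0.082 and changes between -2.45 and -2.11. These arrays measured whole tissue, in which fewer cells of a type and less RNA per cell cannot be told apart.

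Lists of stromal markers moved to different extents, and their counts are to be read against the 7.60% and 6.00% of all genes that fell. The fibroblast list, 13 genes, had mean log2 values of 10.37 to 10.48 in normal glands, 7.40 to 9.93 in the non-metastatic group and 8.35 to 9.56 in the metastatic group, and 3 and 2 of its 13 genes fell, with median changes of -1.31 and -1.20. Dpt, which encodes the matrix protein dermatopontin, had the largest changes of the list, -4.74 and -4.26, and Fap and, in the non-metastatic group, Dcn also fell. Most of the list did not pass, among them Col1a1, a chain of type I collagen, at -1.23 and -1.18, and the receptor gene Pdgfrb at -0.34 and 0.02. The lowest fibroblast value, 7.40, belonged to non-metastatic tumour 2, the array with the lowest Igf1. That array was also the lowest of all in the white adipocyte, endothelial and macrophage lists. White adipocyte markers had mean log2 values of 10.68 to 11.72 in normal glands, 6.58 to 7.70 in the non-metastatic group and 6.90 to 7.03 in the metastatic group, and 13 and 14 of 14 fell. Endothelial markers fell in 5 and 4 of 12 cases, and their mean log2 value was 8.59 to 9.01 in normal glands, 7.35 to 8.14 in the non-metastatic group and 7.66 to 8.42 in the metastatic group. Macrophage markers fell in 1 and 0 of 10 cases, with means of 9.48 to 10.31, 8.42 to 9.60 and 9.07 to 9.30. Of 6 pericyte markers 0 passed in either comparison, and their means overlapped between the groups, at 8.21 to 8.81, 7.93 to 8.67 and 8.16 to 9.09. Outside the stroma, 3 and 2 of 11 luminal epithelial genes rose and 0 fell, where 11.2% and 7.35% of all genes rose. Cdh1 and Kit rose in both comparisons and Epcam in the non-metastatic group. Esr1 went the other way, at -1.69 and -1.82, without passing. The part of these cell types in the values of Igf1 and of the other members was not tested, and an array has no zero from which the absence of a marker could be read.

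**Figure D2:**
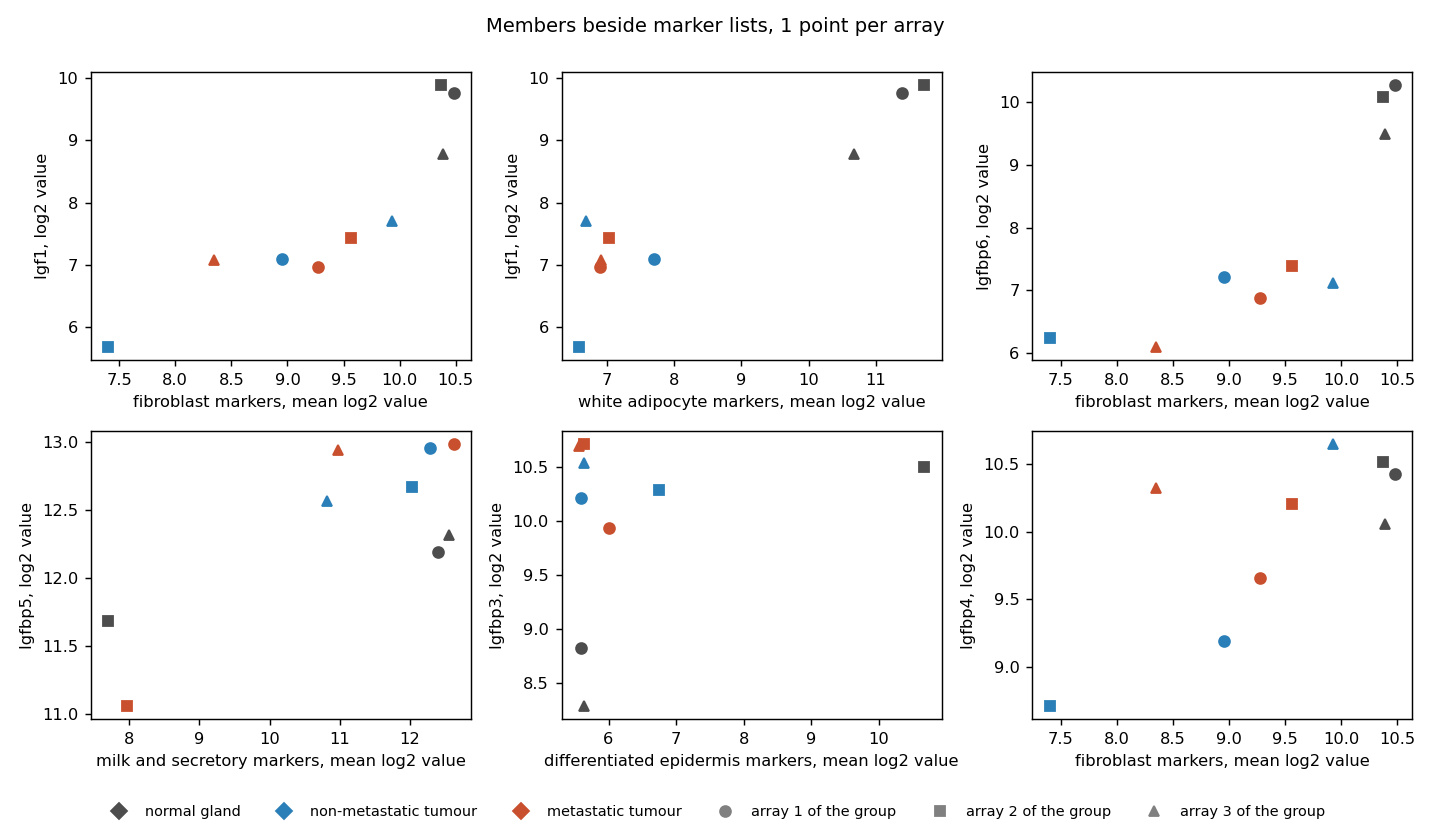
Log2 value of a member (y axis) against the mean log2 value of a marker list (x axis), 1 point per array, with colours for the groups and symbols for the array's number within its group. The 3 normal glands lie at the top right for Igf1 and Igfbp6 beside fibroblast markers, non-metastatic tumour 2 lies lowest for Igf1, metastatic tumour 2 and normal gland 2 lie lowest for Igfbp5 beside milk markers, and normal gland 2 stands alone at the right for Igfbp3 beside epidermis markers.

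Upstream of Igf1, 7 genes of growth hormone signalling were tested, of which 1 fell and 0 rose in each comparison with normal gland, where 7.60% and 6.00% of all genes fell; a single gene among 7 cannot be told from that share. That gene was Ghr, the growth hormone receptor, at 9.94, 10.24 and 9.02 in normal glands, 7.27, 7.60 and 7.41 in the non-metastatic group, and 7.48, 7.56 and 7.53 in the metastatic group. The 6 tumours spanned a narrow range well below the normal glands. Ghr fell in both, with changes of -2.30 (SE 0.28, adjusted p = 0.0041) and -2.21 (SE 0.28, adjusted p = 0.0049), and both calls held in all 18 alternatives. The STAT5 genes and the feedback inhibitors Socs2, Socs3 and Cish were in this group and did not pass. Igf2, the second IGF ligand, was dim: normal glands averaged 6.57 ± 0.32, the non-metastatic group 5.83 ± 0.14 and the metastatic group 5.99 ± 0.12 (log2 mean ± SD, n = 3). All 6 tumours were below the 3 normal glands. Igf2 fell by 0.74 in non-metastatic tumours (SE 0.17, adjusted p = 0.022), and its change in metastatic tumours was -0.59 (SE 0.17, adjusted p = 0.055). Leaving out normal gland 1 (adjusted p = 0.071), normal gland 2 (0.060) or non-metastatic tumour 2 (0.071) ended that call, as did a fit to only the 2 groups (0.062), while the metastatic change passed without normal gland 3 (0.015), with array weights (0.0029) and with the stricter filter (0.048).

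Igf1r, the kinase receptor for IGF-I, had log2 values of 8.83, 8.79 and 8.61 in normal glands. The non-metastatic group reached 9.25, 9.82 and 9.31, and the metastatic group 9.34, 9.88 and 9.59. The direction was thus opposite to that of its ligand, with every tumour above every normal gland. The change was 0.72 in non-metastatic tumours (SE 0.19, 1.64-fold, adjusted p = 0.036) and 0.86 in metastatic tumours (SE 0.19, 1.81-fold, adjusted p = 0.027). Both calls were close to the threshold. The non-metastatic call was lost in 8 of 18 alternatives: without any 1 of the normal glands, without non-metastatic tumour 2 or 3 or metastatic tumour 3, with quantile normalisation and with only the 2 groups in the fit (adjusted p between 0.052 and 0.090). The metastatic call was lost without any 1 of the normal glands or without metastatic tumour 2 or 3 (adjusted p between 0.051 and 0.080). Over all alternatives the change stayed between 0.54 and 0.82, and between 0.72 and 0.99.

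Igf2r, the scavenger receptor of IGF-II, had nearly equal values in normal glands, 9.03, 9.03 and 9.10. The non-metastatic group had 9.95, 9.93 and 9.42, and the metastatic group 9.49, 9.45 and 9.22. Every tumour was above every normal gland, and non-metastatic tumours 1 and 2 were the highest. The change was 0.71 in non-metastatic tumours (SE 0.16, 1.64-fold, adjusted p = 0.020), lost without normal gland 1 or 2, without non-metastatic tumour 1 or 2 and with only the 2 groups in the fit (adjusted p between 0.052 and 0.065). In metastatic tumours it was 0.33 (SE 0.16, adjusted p = 0.19), which passed with array weights only (0.043). Insr, the insulin receptor, averaged 9.27 ± 0.24 in normal glands, with 9.05 ± 0.15 for the non-metastatic group and 9.09 ± 0.10 for the metastatic group (log2 mean ± SD, n = 3), and the groups overlapped. Its changes were -0.23 and -0.19 (SE 0.14 each, adjusted p = 0.31 and 0.42), with 95% intervals from -0.56 to 0.10 and from -0.52 to 0.15.

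**Figure D3:**
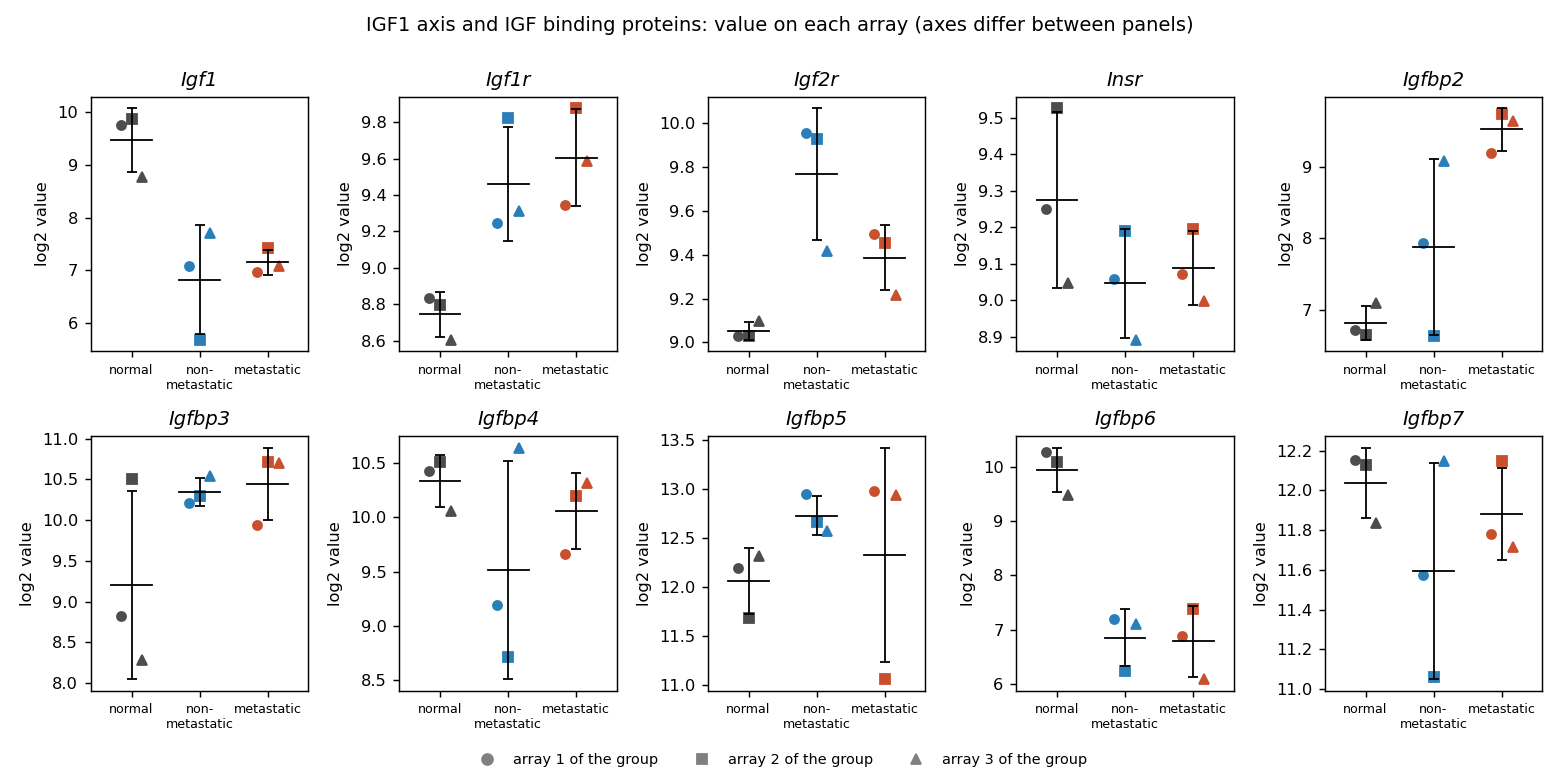
Log2 value of each of the 10 genes on each array (y axis, own scale per panel) in normal gland, non-metastatic and metastatic tumour, with symbols for the array's number within its group, a line for the mean and bars of 1 SD (n = 3). Igf1 and Igfbp6 are below normal gland in all 6 tumours, Igf1r and Igf2r are above it in all 6, and Igfbp2 is above it in 5, with non-metastatic tumour 2 at the level of the normal glands.

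Igfbp6, a binding protein with a preference for IGF-II, had the largest change of the 10 members in both comparisons with normal gland. Its log2 values were 10.27, 10.09 and 9.49 in normal glands, 7.20, 6.24 and 7.11 in the non-metastatic group and 6.88, 7.38 and 6.09 in the metastatic group. The highest tumour, at 7.38, lay far below the lowest normal gland, at 9.49. Igfbp6 fell in both, with a change of -3.10 in the non-metastatic group (SE 0.39, 8.57-fold lower, adjusted p = 0.0044) and of -3.17 in the metastatic group (SE 0.39, 8.99-fold lower, adjusted p = 0.0042). Both calls held in all 18 alternatives, with changes between -3.41 and -2.79 and between -3.59 and -2.82. As for Igf1, the fibroblast, adipocyte, endothelial and macrophage lists were lowest in non-metastatic tumour 2, where Igfbp6 was 6.24. The lowest Igfbp6 of all, however, was in metastatic tumour 3.

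Igfbp2, a binding protein expressed by epithelial cells of many organs, separated the groups in a different way. It had log2 values of 6.72, 6.66 and 7.10 in normal glands, 7.94, 6.63 and 9.09 in the non-metastatic group and 9.19, 9.74 and 9.64 in the metastatic group. The 3 metastatic tumours were above all other arrays, non-metastatic tumour 3 came close to them, and non-metastatic tumour 2 was the lowest array. The change against normal gland was 2.70 in metastatic tumours (SE 0.53, 6.49-fold, adjusted p = 0.019) and 1.06 in non-metastatic tumours (SE 0.53, adjusted p = 0.20). The metastatic call was lost without normal gland 1 or 2 or any 1 of the metastatic tumours (adjusted p between 0.053 and 0.066), although the change kept a size of 2.59 to 2.87. Without non-metastatic tumour 2 the non-metastatic change was 1.69 and passed (adjusted p = 0.036).

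Igfbp3, the main carrier of IGFs in blood, showed how far a result can rest on 1 array. Normal glands had log2 values of 8.83, 10.50 and 8.29, non-metastatic tumours 10.21, 10.29 and 10.54, and metastatic tumours 9.94, 10.71 and 10.70. Normal gland 2, the array with high epidermis and muscle markers, lay within the range of the tumours, and normal glands 1 and 3 lay below every tumour. The changes were 1.14 and 1.24 (SE 0.51 each, adjusted p = 0.16 and 0.14) with all arrays. Without normal gland 2 they were 1.79 and 1.89 (adjusted p = 0.019 each), and they also passed with array weights (1.45 and 1.58, adjusted p = 0.021 and 0.0047). The part of skin or muscle tissue in normal gland 2 in its Igfbp3 value was not tested.

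Igfbp4, a binding protein that generally inhibits IGF action until it is cleaved, had log2 values of 10.42, 10.51 and 10.06 in normal glands, 9.19, 8.71 and 10.64 in the non-metastatic group and 9.66, 10.20 and 10.32 in the metastatic group. Non-metastatic tumours 1 and 2 and metastatic tumour 1 were below all normal glands, and non-metastatic tumour 3 was the highest array. The changes were -0.82 and -0.27 (SE 0.45 each, adjusted p = 0.24 and 0.73), and without non-metastatic tumour 3 the first was -1.38 and passed (adjusted p = 0.021). Non-metastatic tumour 2, lowest in Igfbp4, was also lowest in the fibroblast, white adipocyte, endothelial and macrophage lists.

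Among the proteases that cleave IGFBPs and their inhibitors, 6 genes were tested; 2 fell and 0 rose in non-metastatic tumours, and 1 rose and 1 fell in metastatic tumours. Over all genes 11.2% rose and 7.60% fell in the first comparison, and 7.35% and 6.00% in the second. Pappa, which encodes the metalloprotease PAPP-A that cleaves IGFBP4 and IGFBP5, was the one that rose. It was at 7.32, 6.09 and 7.46 in normal glands, 7.47, 8.96 and 9.10 in the non-metastatic group and 9.70, 9.61 and 10.10 in the metastatic group. The 3 metastatic tumours were the highest arrays, and non-metastatic tumour 1 was level with normal glands 1 and 3. The change was 2.85 in metastatic tumours (SE 0.49, adjusted p = 0.013), lost only without metastatic tumour 3 (adjusted p = 0.053) among 18 alternatives. In non-metastatic tumours it was 1.55 (SE 0.49, adjusted p = 0.061), and it passed without non-metastatic tumour 1 (2.08, adjusted p = 0.024), after median centring (0.045) and with array weights (0.044). Htra1, a secreted serine protease that cleaves IGFBPs, fell, with a change of -1.78 in non-metastatic tumours (SE 0.31, adjusted p = 0.011), a call held in all 18 alternatives. Its change in metastatic tumours was -0.90 (SE 0.31, adjusted p = 0.093), which passed with only the 2 groups in the fit (0.027), with array weights (0.014) and without non-metastatic tumour 3 (0.020). Adam12, a metalloprotease that cleaves IGFBP3 and IGFBP5, fell in both, with changes of -1.02 and -1.11 (SE 0.21 each, adjusted p = 0.017 and 0.018). The first of these calls was lost without normal gland 1 or 2 (0.060 and 0.052), and the second without those arrays or metastatic tumour 1 or 3 (adjusted p between 0.056 and 0.066). Stc1, an inhibitor of PAPP-A, had changes of 0.38 and 1.36 (SE 0.47 each, adjusted p = 0.61 and 0.090).

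Igfbp5, a binding protein known for its rise during mammary involution, had log2 values of 12.20, 11.68 and 12.31 in normal glands, 12.96, 12.67 and 12.57 in the non-metastatic group and 12.98, 11.06 and 12.94 in the metastatic group. Metastatic tumour 2 stood well below the other metastatic tumours, and normal gland 2 was the lowest of its group. These 2 arrays were also the lowest of all for milk and secretory markers, at mean log2 values of 7.97 and 7.70, while the other 7 arrays lay between 10.82 and 12.62. They were the lowest for luminal epithelial markers too, at 9.36 and 8.77, where the next lowest array was at 9.54. The part of either list in Igfbp5 was not tested. The changes against normal gland were 0.67 and 0.26 (SE 0.48 each, adjusted p = 0.37 and 0.75). All 3 non-metastatic tumours were above all normal glands without passing the test, and without metastatic tumour 2 the metastatic change was 0.90 without passing. The sign of the metastatic change turned without metastatic tumour 1 (-0.06) or metastatic tumour 3 (-0.04).

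Igfbp7, a secreted protein of vessels and stroma with low affinity for IGFs, averaged 12.04 ± 0.18 in normal glands, with 11.60 ± 0.54 for the non-metastatic group and 11.88 ± 0.23 for the metastatic group (log2 mean ± SD, n = 3). The groups overlapped, and non-metastatic tumour 2 was the lowest array at 11.06. The changes were -0.44 and -0.16 (SE 0.26 each, adjusted p = 0.27 and 0.73), with 95% intervals from -1.04 to 0.16 and from -0.76 to 0.45.

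Metastatic and non-metastatic tumours were then compared with each other, which is also the test of whether the axis departed from normal gland by different amounts. Of the 10 members 0 passed limma's adjusted test, where 0.00572% of all genes did, which is 1 gene. Over all genes 40 were called without non-metastatic tumour 3, and members called stayed at 0. Of the members 2 had an unadjusted p under 0.05, where 5.07% of all genes had one. These were Igfbp2, 1.63 higher in metastatic tumours (SE 0.53, 95% interval from 0.43 to 2.84, limma's adjusted p = 0.88), and Igf2r, with a difference of -0.38 (SE 0.16, interval from -0.74 to -0.02, limma's adjusted p = 0.88). Igfbp2 was the only member without overlap between the tumour groups (1 of 10, where 10.3% of all genes had none), and the lowest metastatic tumour was at 9.19 against 9.09 for the highest non-metastatic one. The mean of the basal and myoepithelial list (9 genes) did not overlap between the tumour groups either. It was 7.81 to 9.34 in non-metastatic tumours, 9.76 to 9.78 in metastatic tumours and 9.16 to 9.37 in normal glands. Of the 9 genes, Acta2, Myh11, Cnn1 and Mylk (4) had no overlap, and 0 passed. Of 11 luminal genes 2 had none, Foxa1 and Pgr, which were 3.03 and 1.78 higher in metastatic tumours. Of 10 skeletal muscle genes 2 had none, Mb and Tnni2, and both were lower in metastatic tumours. Of 6 pericyte genes 1 had none, Notch3, which was higher in metastatic tumours. In the luminal, muscle and pericyte lists 0 passed. The part of any of these lists in the values of Igfbp2 was not tested. Igf1 differed by 0.33 (SE 0.50, interval from -0.82 to 1.48), and the difference was -0.24 without non-metastatic tumour 2. Igfbp6 differed by -0.07 (SE 0.39, interval from -0.96 to 0.82), and its sign turned without non-metastatic tumour 1 or 3 or metastatic tumour 3 (0.11, 0.06 and 0.28). Igf1r differed by 0.14 (interval from -0.30 to 0.58) and Igfbp4 by 0.54 (interval from -0.49 to 1.58). The differences of Igfbp3 (0.10), Igfbp5 (-0.40) and Insr (0.04) also turned sign when single tumours were left out. Pappa was 1.29 higher in metastatic tumours without overlap between the groups (SE 0.49, limma's adjusted p = 0.88), and Stc1 differed by 0.98 (SE 0.47, adjusted p = 0.88). Of the 52 other pathway genes tested, 0 passed and 4 had an unadjusted p under 0.05. These were Pappa, Htra1 (a difference of 0.87, SE 0.31), Grb10 (0.98, SE 0.41) and Grb14 (1.05, SE 0.45, no overlap), the last 2 being adaptors that bind the insulin and IGF1 receptors.

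The wider pathway was described with 60 further genes, listed by their roles with earlier results of these data known, of which 52 were tested. In non-metastatic tumours 3 rose and 6 fell, and in metastatic tumours 3 rose and 4 fell among the 52, to be read against the shares of all genes given above. Those called numbered 4 in the non-metastatic group without normal gland 1, normal gland 2 or non-metastatic tumour 2. In the metastatic group they numbered 4 without normal gland 2 or metastatic tumour 1 and 2 without metastatic tumour 3. Calls over all genes were fewer in these fits too, with 827 higher and 705 lower in the non-metastatic group without non-metastatic tumour 2. The median change of the 52 genes was 0.07 and 0.02 with all arrays. Where 11.2% and 7.35% of all genes rose, 2 of 12 receptor substrates and adaptors rose and 0 fell in each comparison. These were Grb7, an adaptor bound by ErbB and other receptors, at 0.95 and 1.26 (SE 0.24 each, adjusted p = 0.029 and 0.017), and Sos1, an exchange factor that activates Ras, at 0.50 and 0.57 (SE 0.11 each, adjusted p = 0.019 and 0.017). Irs1 and Irs2, the main substrates of IGF1R, had changes of 0.21 and 0.52 in non-metastatic tumours and of 0.21 and 0.59 in metastatic tumours, and neither passed.

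Of 22 genes of the PI3K and AKT pathway 1 rose and 2 fell in non-metastatic tumours, and 0 rose and 2 fell in metastatic tumours. Over all genes 11.2% rose and 7.60% fell in the first comparison, and 7.35% and 6.00% in the second. Counts this small among 22 genes cannot be told from those shares. Akt2, the AKT kinase associated with insulin-stimulated glucose uptake, was at 9.98, 10.10 and 9.66 in normal glands, and the 6 tumours lay between 8.88 and 9.06. The tumours were closely grouped, below all normal glands. Akt2 fell in both, with changes of -0.997 and -0.875 (SE 0.12 each, adjusted p = 0.0043 and 0.0072), both held in all 18 alternatives, whereas Akt1 had changes of 0.20 and 0.09 without passing. Mtor, the kinase of both mTOR complexes, fell in both, with changes of -0.60 and -0.68 (SE 0.14 each, adjusted p = 0.026 and 0.023), and with array weights the non-metastatic change was -0.36 (adjusted p = 0.073). Rictor, a subunit of mTOR complex 2, rose by 0.63 in non-metastatic tumours (SE 0.19, adjusted p = 0.050, just under the threshold), and this was lost in 13 of 18 alternatives and was 0.40 without non-metastatic tumour 2 (adjusted p = 0.061). Its change in metastatic tumours was 0.40 (SE 0.19, adjusted p = 0.19), which passed without non-metastatic tumour 2 (0.040), with array weights (0.037) and with only the 2 groups in the fit (0.041). The calls of Grb7, Sos1 and Mtor in non-metastatic tumours were lost in 4, 4 and 5 of 18 alternatives, and those in metastatic tumours in 3, 2 and 3. Without normal gland 2 all 6 of these calls were lost, with adjusted p between 0.051 and 0.091.

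**Figure D4:**
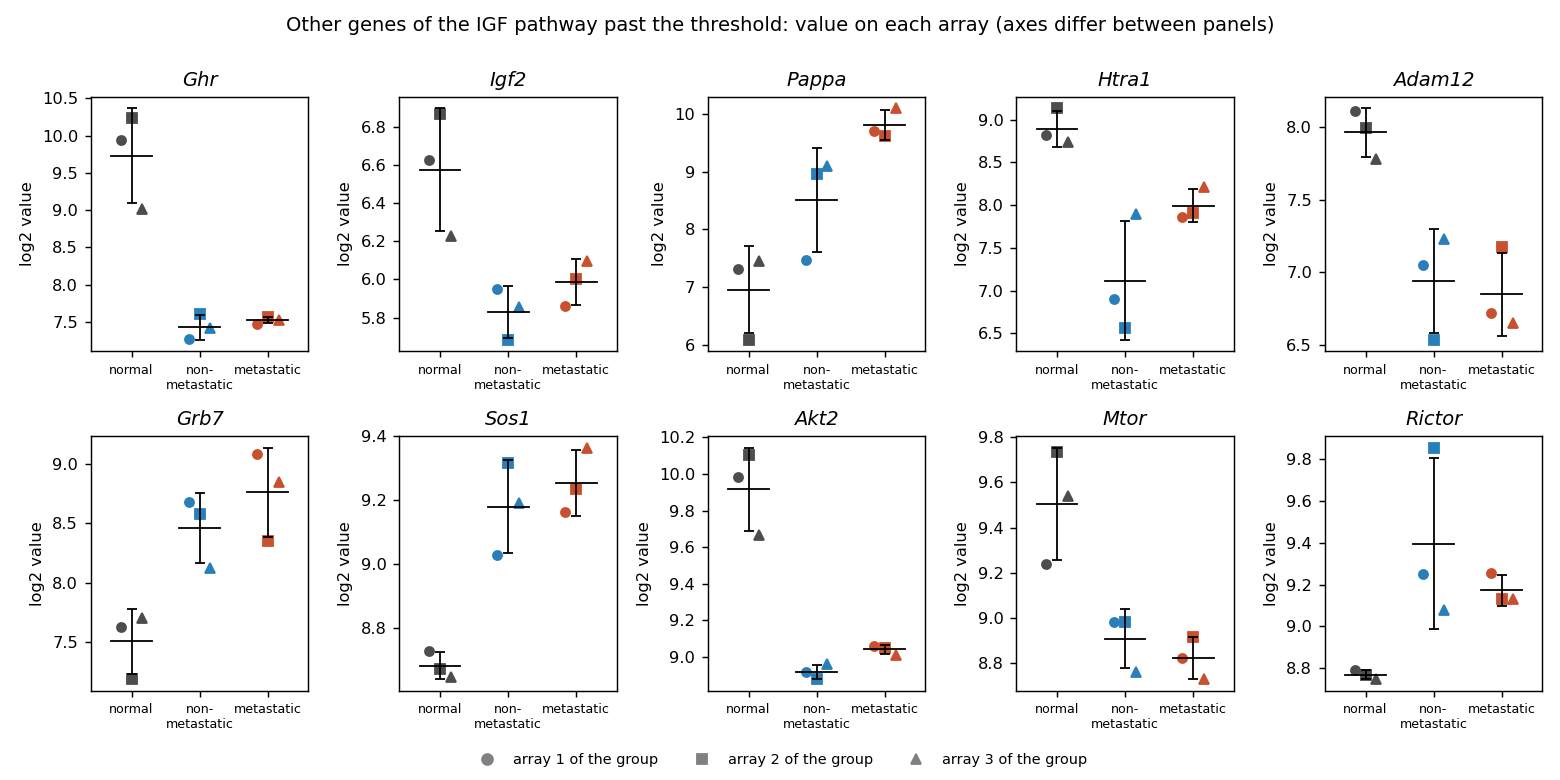
Log2 value of the 10 other pathway genes past the threshold in at least 1 comparison with normal gland (y axis, own scale per panel), with symbols for the array's number within its group, a line for the mean and bars of 1 SD (n = 3). Ghr and Akt2 form a tight cluster of 6 tumours below the normal glands, and Pappa is highest in the 3 metastatic tumours.

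The genes most like each called member were found by the root mean square difference of log2 values over the 9 arrays, after each gene was centred on its own mean. For Igf1, whose own values spread by 1.31 on this measure, they were Nid1, Vegfd and Fhl1, at differences of 0.25, 0.25 and 0.28. Nid1 encodes the basement membrane protein nidogen-1 and Vegfd a growth factor of lymphatic vessels. For Igfbp6, with a spread of 1.54, they were Enpep, Tnxb and Slc1a5 at 0.16, 0.27 and 0.30, of which Tnxb encodes the connective tissue protein tenascin-X and Enpep an aminopeptidase of vessels and kidney. Igf1r, with a spread of 0.43, was closest to Cul1, Mob4 and Golim4 at 0.12, 0.13 and 0.14. Igf2r, with a spread of 0.33, was closest to Yrdc, Tmed9 and P4hb at 0.06, 0.08 and 0.09, the last 2 being proteins of the secretory pathway. Igfbp2, with a spread of 1.26, had no gene as near as those of Igf1 and Igfbp6, with Slit2, Lhfpl3 and Klk1b27 at 0.39, 0.40 and 0.45. Slit2, which encodes an axon guidance ligand, averaged 7.13 in normal glands, 8.33 in non-metastatic and 9.91 in metastatic tumours. Among the members themselves Igf1 and Igfbp6 differed by 0.52. All these are descriptions of 9 arrays in which tumours and normal glands form separate groups.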

How the data were processed

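The deposited table holds 41345 probe sets on 9 arrays in log2 units. Per the submitters' processing notes the log2 scale comes from RMA, a method that corrects background, normalises between arrays and summarises probes; its version and the genome build are not given in the sources used here. Arrays have no depth, and their number limits the precision. Probe sets with 1 gene symbol (23521) were named through the platform annotation and current Entrez records (23328 matched), and the probe set with the highest mean stood for a gene. Genes above the 30th percentile of their array on at least 3 arrays were kept (17478 of 22180). Group means were estimated together from the 9 arrays with limma 3.58.1 (R 4.3.3) and eBayes, two-sided, with Benjamini-Hochberg adjustment over all genes kept; SE and intervals are moderated. It was tested on simulated data.

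The members and gene lists were chosen with earlier results of these data known. Named genes are the 10 members, up to 3 genes per pathway group past the threshold, Igf2, marker genes where their list is described, and the 3 genes most like each called member; Wnt1, Irs1, Irs2, Akt1, Stc1, Grb10, Grb14, Igfals and the growth hormone genes that did not pass are named outside this rule. Promoter windows came from RefSeq (GRCm38.p6). Alternatives were no filter, a 50th percentile filter, the mean of probe sets, quantile normalisation, median centring, trend and robust eBayes, array weights, only the groups compared, the replicate number as a block, age as a covariate between tumours, and each array left out.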

Additional observations from a re-analysis of the deposited data

How the results depend on the processing

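Members called in non-metastatic tumours against normal gland numbered 4 with all arrays and 2 to 4 with 1 array left out, and 2 with only the groups compared. In metastatic tumours against normal gland they numbered 4, and 1 to 4 with 1 array left out. Other pathway genes called numbered 9 and 7, became 4 to 9 and 2 to 10 with 1 array left out, 5 in non-metastatic tumours with only the groups compared, and 19 in metastatic tumours with array weights. Between the tumour groups members and pathway genes called stayed at 0 in all 19 alternatives, age as a covariate included. No direction of a member turned in any of the 10 kinds of alternative that kept all arrays of the groups compared. Most of these kinds could not have turned one, because they left each member's difference of group means unchanged. Only quantile normalisation, median centring, array weights and the age covariate could move it. With 1 array left out, the metastatic minus non-metastatic difference ranged from -0.24 to 0.77 for Igf1, from -0.031 to 0.36 for Igfbp3, from -0.73 to 0.23 for Igfbp5, from -0.37 to 0.28 for Igfbp6, from -0.036 to 0.11 for Insr, from -0.29 to 0.054 for Adam12, from -0.38 to 0.0073 for Rictor and from -0.00085 to 0.14 for Sos1, and the metastatic change of Igfbp5 from -0.064 to 0.90. The cause was not tested, beyond the fewer arrays in each fit. Over all genes, calls ranged from 1319 to 5360 in non-metastatic and from 630 to 6498 in metastatic tumours, the highest with array weights, and from 0 to 40 between the tumour groups.

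The titles number the biological replicates 1 to 3 in each group and state no pairing between groups. Residuals of 2 of 9 same-number pairs were correlated above 0.1, and those of different-number pairs reached 0.26. The replicates were not treated as paired. With the replicate number as a block, Igf1 changed by -2.32 in metastatic tumours with adjusted p = 0.060, and the Igf2 and Rictor calls in non-metastatic tumours were lost (adjusted p = 0.052 and 0.074).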

Other observations

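In RefSeq's gene order (GRCm38.p6) Igfbp2 and Igfbp5 follow each other among protein-coding genes, as do Igfbp1 and Igfbp3. Metastatic tumour 2 had the highest Igfbp2 of the 9 arrays, at 9.74, and the lowest Igfbp5, at 11.06. Igfals, which encodes the partner of IGFBP3 in the circulating complex, had changes of -0.73 and -1.35 from normal gland (SE 0.65 each) and did not pass (limma's adjusted p = 0.47 and 0.20), with its lowest value, 5.38, also in metastatic tumour 2.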
